A study of Mus musculus with 15 samples.

Results

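A set of 10 genes of xenobiotic and lipid sensing was followed in mouse liver: *Nr1i3*, *Nr1i2*, *Rxra*, *Nr1h3*, *Thrb*, *Esrra* and *Pparg*, which encode nuclear receptors, *Ahr* and *Arnt*, which encode the dioxin receptor and its partner, and *Por*, which encodes an enzyme. They were chosen by symbol, with earlier results of these data known, and are 10 of the 55573 genes of the count table. All 10 were among the 17655 genes with enough counts to be tested. Since 3 of them are not nuclear receptors (*Ahr* and *Arnt* belong to the bHLH-PAS family), they are called xenobiotic and lipid sensing genes here.

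Livers of 15 mice aged 8 weeks were sequenced, each as its own library: 5 females and 4 males without functional *Esr1* (ESR1KO) and, of each sex, 3 wild-type (WT) littermates. ESR1KO mice (strain label B6N(Cg)-Esr1tm4.2Ksk/J, which the WT littermates also carry) were homozygous for a germline deletion of an *Esr1* exon. *Esr1* encodes estrogen receptor alpha. The deletion is in every cell of the body, and the study describes raised testosterone in both sexes of these mice, so an effect within hepatocytes and an effect of altered hormones cannot be told apart. The design asks which sex bias in RNA is present in WT mice, and whether it is kept without ESR1.

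The constitutive androstane receptor CAR (*Nr1i3*) and the pregnane X receptor PXR (*Nr1i2*) are the main liver sensors of drugs and other foreign compounds, and both act as heterodimers with RXR alpha (*Rxra*). They switch on cytochrome P450 enzymes, conjugating enzymes and transporters. Microsomal P450 enzymes draw their electrons from the P450 reductase encoded by *Por*. AHR, once bound by a planar aromatic ligand, enters the nucleus and pairs with ARNT to induce *Cyp1* genes. LXR alpha (*Nr1h3*) senses oxysterols, THRB is the main thyroid hormone receptor of the liver, ERR alpha (*Esrra*) is an orphan receptor that drives mitochondrial genes, and PPAR gamma (*Pparg*) drives lipid storage and is known chiefly from fat, with low levels in normal liver.

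Total counts ranged from 27799061 to 78624766 per library. Levels are CPM, the counts of a gene relative to the TMM-scaled total of its library, and group levels are means ± SD over the mice of the group (n = 3 for each WT group, n = 5 for ESR1KO females, n = 4 for ESR1KO males). Each difference is given as a log2 fold change with its standard error from 1 edgeR quasi-likelihood fit over the 15 libraries. Genes with an adjusted p under 0.05 were called, whatever the size of the difference, with p values adjusted over the 17655 genes. The deleted gene checked the labels: *Esr1* was at 81.9 ± 6.79 CPM in WT females and 13.1 ± 4.01 in ESR1KO females, and in males at 36.1 ± 14.1 with and 11.8 ± 3.35 without the intact gene. Its fall was called in females (log2 fold change -2.64 ± 0.248 SE, edgeR adjusted p = 4.47e-06) and in males (-1.62 ± 0.263 SE, edgeR adjusted p = 0.00445). *Xist* and 4 Y-linked genes matched the labelled sex in 15 of 15 libraries. ESR1KO female libraries 1 and 4 stood apart in the share of counts from mitochondrial genes, at 11.2% in mouse 1 and 1.97% in mouse 4, where the other 13 libraries lay between 4.33% and 7.40%.

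*Nr1i3*, *Por* and *Pparg* passed the test in at least 1 comparison. The reference sequence before their start sites (RefSeq, GRCm38.p6, 250 bases, gene strand) is shown because it is the place where a shared element of the moving genes would be looked for first. Capitals mark matches on either strand to the motifs searched: the nuclear receptor core AGGTCA, the AHR core GCGTG, the E box CACGTG and the STAT5 motif TTCNNNGAA. On the other strand an AHR core reads CACGC. RefSeq promoters were matched for 9 of the 10 genes, all but *Ahr*.
*Nr1i3*, chr1:171213720-171213969, plus strand: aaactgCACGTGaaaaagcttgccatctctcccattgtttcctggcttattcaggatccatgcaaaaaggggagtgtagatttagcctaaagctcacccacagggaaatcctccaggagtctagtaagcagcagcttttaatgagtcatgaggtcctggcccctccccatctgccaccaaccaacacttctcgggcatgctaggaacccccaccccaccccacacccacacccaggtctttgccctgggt
*Por*, chr5:135688895-135689144, plus strand: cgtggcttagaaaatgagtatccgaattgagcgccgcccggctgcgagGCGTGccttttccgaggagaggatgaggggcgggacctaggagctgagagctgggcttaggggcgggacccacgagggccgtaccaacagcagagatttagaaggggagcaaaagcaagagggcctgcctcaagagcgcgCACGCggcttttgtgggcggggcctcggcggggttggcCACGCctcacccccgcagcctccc
*Pparg* start 1, chr6:115360894-115361143, plus strand: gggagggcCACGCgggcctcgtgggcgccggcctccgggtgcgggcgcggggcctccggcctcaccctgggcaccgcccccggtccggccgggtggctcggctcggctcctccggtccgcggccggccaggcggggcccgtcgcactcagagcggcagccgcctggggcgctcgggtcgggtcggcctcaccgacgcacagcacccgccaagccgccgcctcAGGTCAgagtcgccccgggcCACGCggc
*Pparg* start 3, chr6:115421816-115422065, plus strand: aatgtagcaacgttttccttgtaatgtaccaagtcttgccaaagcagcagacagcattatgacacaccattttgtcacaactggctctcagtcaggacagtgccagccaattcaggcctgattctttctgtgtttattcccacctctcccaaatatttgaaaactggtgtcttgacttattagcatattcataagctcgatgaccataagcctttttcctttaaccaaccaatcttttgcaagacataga

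The *Nr1i3* window holds 1 E box, whose first base is at -244 from the start, and no AGGTCA core. An E box is present in 7.15% of the 32851 promoters of the reference table (windows from 250 bases before to 50 after the start). The *Por* window holds 3 AHR cores, a motif found in 32.4% of promoters, and lies inside the annotated *Por* gene (chromosome 5, 135670033 to 135735326), downstream of its first annotated start. The first *Pparg* start has 1 AGGTCA core at -28 and 2 AHR cores, and a further start downstream, not printed, has an AGGTCA core at -9, while the start printed last has no match. The AGGTCA core is present in 16.3% of promoters. No promoter of the 9 genes held the full estrogen receptor site in the form searched (AGGTCA, 3 bases, TGACC), which 0.0548% of promoters hold, nor AGGTCA repeated after 4 bases (0.0152%) nor the STAT5 motif (8.30%). These matches describe letters in 1 window and say nothing of binding.

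Between WT females and WT males, *Nr1i3* was the only one of the 10 genes called, and it was higher in females. It is 1 of 860 genes called in this comparison, 4.87% of those tested, and 4 of the 10 genes had an unadjusted p under 0.05, against 17.3% of all genes. The median log2 fold change of the 10 genes was 0.22, beside 0.01 for all genes, and 8 of the 10 estimates were higher in females. Values of 4 genes (*Nr1i3*, *Nr1i2*, *Por* and *Nr1h3*) did not overlap between the sexes, each with all 3 females above all 3 males. With 3 mice on each side, 30.1% of all genes tested had groups that did not overlap.

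*Nr1i3* (ENSMUSG00000005677; GRCm38 chromosome 1, 171213970 to 171220701, plus strand) encodes CAR. Its RNA was at 437, 318 and 361 CPM in the 3 WT females and at 167, 170 and 243 CPM in the 3 WT males. The females were 1.93-fold higher (log2 fold change 0.95 ± 0.227 SE, 95% interval 0.47 to 1.43, edgeR adjusted p = 0.0202). The call rested on single mice, with an adjusted p of 0.0932 without WT female 1, 0.0549 without WT female 3, 0.115 without WT male 1 and 0.0987 without WT male 2, while its log2 fold change was never under 0.81 in these fits. ESR1KO females had 213, 195, 213, 278 and 383 CPM, and ESR1KO males 210, 204, 223 and 261 CPM. Of the 5 ESR1KO females, 4 lay below every WT female, and the fifth lay within the WT female range.

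The sex difference of *Nr1i3* in ESR1KO mice was 0.19 on the log2 scale (95% interval -0.20 to 0.58, edgeR adjusted p = 0.598). From WT to ESR1KO the estimate was -0.54 in females (95% interval -0.96 to -0.12, edgeR adjusted p = 0.119) and 0.22 in males (95% interval -0.23 to 0.66, edgeR adjusted p = 0.767). The difference between these 2 genotype effects, the interaction, was -0.75 (95% interval -1.37 to -0.14, edgeR adjusted p = 0.256). So the sex bias of *Nr1i3* passed the test in WT mice alone, and the change of that bias did not pass. Without ESR1KO female 5, the mouse with the highest level in that group, the female estimate was -0.73 (edgeR adjusted p = 0.0143).

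*Nr1i3* shares most of its annotated exon length with a neighbour on the other strand. Of its 4414 exon bases, 3304 are also exon of *Tomm40l*, which encodes a mitochondrial import protein. How the counting treated strand was not given in the sources used here, and without strand the reads of the shared part cannot be told apart. *Tomm40l* was at 8.72 ± 1.63 CPM in WT females and 14.4 ± 0.480 in WT males, a log2 fold change of -0.73 ± 0.149 SE (edgeR adjusted p = 0.00687). It moved opposite to *Nr1i3*, at a level far below it, and its part in the *Nr1i3* values was not tested.

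**Figure D1:**
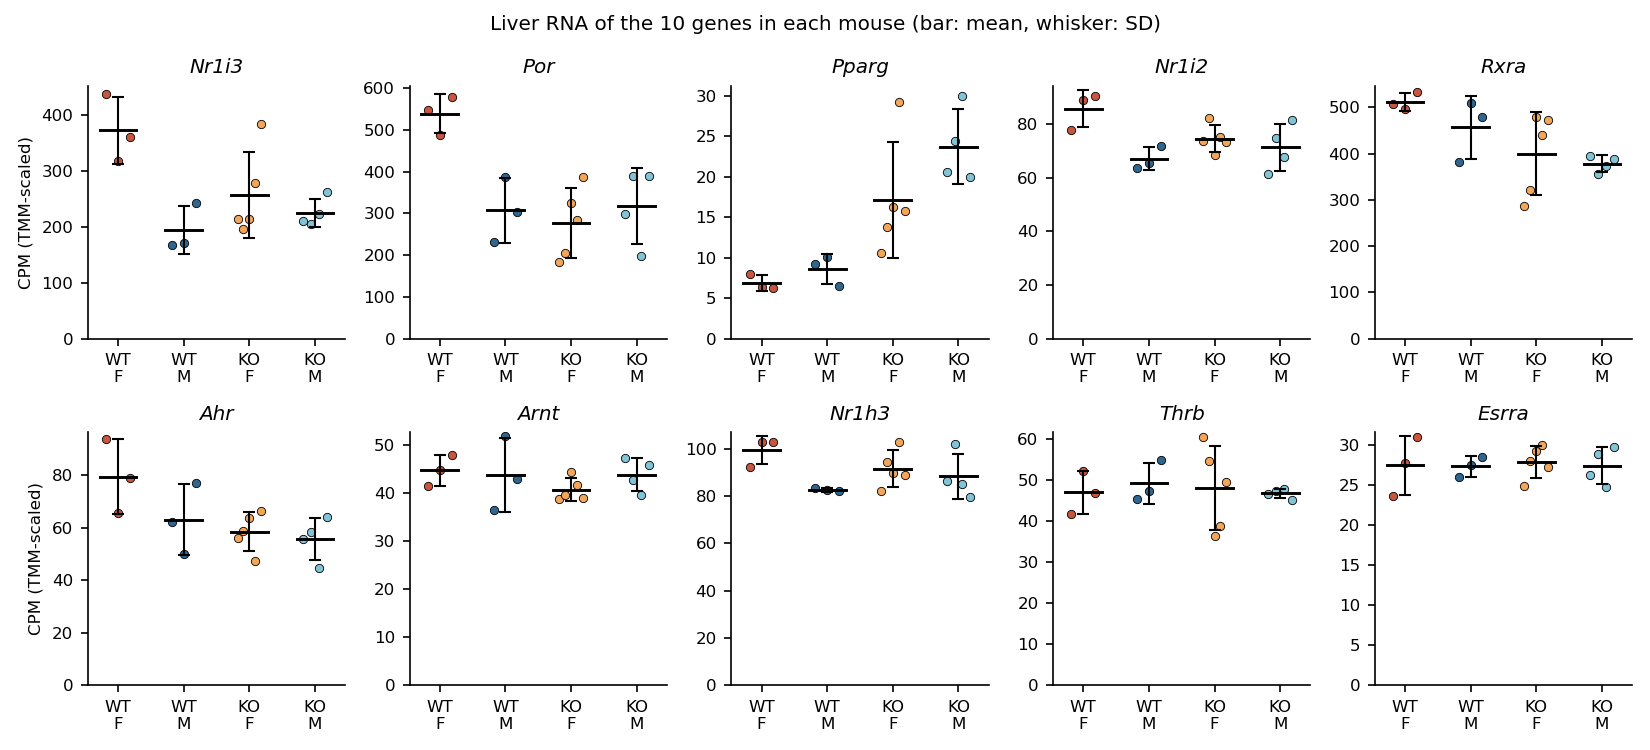
Liver RNA of the 10 genes in each of the 15 mice, in CPM on linear axes that start at 0, by group (F and M are the sexes, KO is ESR1KO). Points are mice, bars are means and whiskers are SD; the WT females stand above the WT males in Nr1i3 and Por, and both ESR1KO groups stand above both WT groups in Pparg.

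*Nr1i2* (ENSMUSG00000022809; chromosome 16, 38248323 to 38294824, minus strand), the gene of PXR, was at 77.8, 89.0 and 90.5 CPM in WT females and 63.8, 65.5 and 71.9 CPM in WT males. The groups did not overlap, and the difference of 0.35 on the log2 scale had a 95% interval of 0.11 to 0.59 and missed the threshold after adjustment (edgeR adjusted p = 0.0921). It passed when libraries were scaled by total counts alone (0.40, edgeR adjusted p = 0.0441) and when the WT mice were fitted alone (0.36, 0.0471). ESR1KO females ranged from 68.4 to 82.4 CPM and ESR1KO males from 61.4 to 81.5 CPM, overlapping each other and both WT groups. The genotype estimates were -0.20 in females (95% interval -0.41 to 0.01) and 0.09 in males (95% interval -0.13 to 0.31).

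*Rxra* (ENSMUSG00000015846; chromosome 2, 27676440 to 27762957, plus strand), the shared partner of CAR, PXR, LXR, THRB and PPAR, was at 507, 496 and 534 CPM in WT females and 381, 510 and 480 CPM in WT males. ESR1KO females had 286, 321, 479, 441 and 472 CPM, all below the WT females, and ESR1KO males 396, 355, 374 and 389 CPM. The estimate from WT to ESR1KO was -0.36 in females (95% interval -0.69 to -0.02, edgeR adjusted p = 0.191) and -0.27 in males (95% interval -0.62 to 0.08, edgeR adjusted p = 0.577). The mean of both was -0.32 (95% interval -0.56 to -0.07, edgeR adjusted p = 0.135), which is not called. The 2 lowest values were those of ESR1KO females 1 and 2, whose mitochondrial shares of 11.2% and 7.40% are the highest of the 15 libraries, and the part of this in the *Rxra* values was not tested.

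*Por* (ENSMUSG00000005514; chromosome 5, 135670033 to 135735326, plus strand) fell in ESR1KO females. WT females had 549, 489 and 580 CPM, WT males 232, 387 and 304 CPM, ESR1KO females 184, 204, 324, 284 and 387 CPM, and ESR1KO males 298, 389, 198 and 389 CPM. The 3 WT females lay above each of the other 12 mice, and the other 3 groups overlapped one another. ESR1KO females were at 0.513 times the WT female level (log2 fold change -0.96 ± 0.243 SE, 95% interval -1.48 to -0.45, edgeR adjusted p = 0.0301). In males the estimate was 0.05 (95% interval -0.50 to 0.60, edgeR adjusted p = 0.972), and the interaction of -1.01 did not pass (95% interval -1.77 to -0.25, edgeR adjusted p = 0.214). The WT sex difference of 0.81 (95% interval 0.22 to 1.4, edgeR adjusted p = 0.126) passed only when the WT mice were fitted alone (0.0319).

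The call for *Por* did not survive the removal of single mice. Its adjusted p was 0.0926, 0.067 and 0.123 without WT female 1, 2 or 3, 0.0501 and 0.0723 without ESR1KO female 1 or 2, and 0.112 without ESR1KO females 1 and 4, the 2 with the outlying mitochondrial shares. The log2 fold change stayed between -1.22 and -0.83 over the alternatives tried. ESR1KO females 1 and 2 again had the 2 lowest values of their group.

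In females, *Por* and *Pparg* were the genes called from WT to ESR1KO, 1 lower and 1 higher. They are 2 of 1008 genes called in this comparison, 5.71% of those tested. The median of the 10 genes was -0.17, beside 0.00 for all genes, and 5 of the 10 had an unadjusted p under 0.05, against 22.5% of all genes. Values of *Por* and *Rxra* lay wholly below, and those of *Pparg* wholly above, the WT females, and 15.6% of all genes had groups without overlap. In males, *Pparg* was the only gene of the 10 called, among 250 genes or 1.42% of those tested, and also the only one without overlap, against 15.9% of all genes, and the only one with an unadjusted p under 0.05, against 11.9%.

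*Pparg* (ENSMUSG00000000440; chromosome 6, 115360951 to 115490399, plus strand) rose in ESR1KO mice of both sexes. It was at 8.02, 6.34 and 6.23 CPM in WT females and 10.6, 13.8, 16.3, 29.2 and 15.7 CPM in ESR1KO females. The groups did not overlap, and ESR1KO females were 2.49-fold higher (log2 fold change 1.32 ± 0.266 SE, 95% interval 0.75 to 1.88, edgeR adjusted p = 0.00779). Among ESR1KO females *Pparg* was lower the higher the mitochondrial share, which was 11.2%, 7.40%, 4.73%, 1.97% and 5.10% in the same order of mice. The part of this in the *Pparg* values was not tested. WT males had 9.24, 10.1 and 6.53 CPM, and ESR1KO males 20.6, 24.4, 30 and 19.9 CPM. ESR1KO males were 2.75-fold higher (log2 fold change 1.46 ± 0.274 SE, 95% interval 0.88 to 2.04, edgeR adjusted p = 0.011).

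Averaged over the sexes, the rise of *Pparg* was 1.39 on the log2 scale (SE 0.191, 95% interval 0.98 to 1.79, edgeR adjusted p = 0.000598), and it was the 1 called gene of the 10 among 729 called, 4.13% of those tested. An unadjusted p under 0.05 was found for 4 of the 10 (*Pparg*, *Ahr*, *Rxra* and *Por*) in this mean, against 19.4% of all genes. The difference of its genotype effect between females and males was -0.14 (95% interval -0.92 to 0.63, edgeR adjusted p = 0.886). Neither the WT sex difference (-0.32, 95% interval -0.93 to 0.29) nor that in ESR1KO mice (-0.47, 95% interval -0.95 to 0.01) passed. The call in females was lost without WT female 3 (edgeR adjusted p = 0.0521) and that in males without WT male 3 (0.0903), while the call averaged over the sexes held under each alternative with an adjusted p of at most 0.00769 except for the stricter fold change of 1.5, which its size does not reach. The file counts reads per gene, so the starts of *Pparg* printed above cannot be told apart.

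These are values of whole liver, in which more RNA per cell and more cells of a type cannot be told apart. Of 5 defining adipocyte markers, *Lep*, *Plin1*, *Retn* and *Adipoq* were at or near 0, and *Cfd* was not in ESR1KO males. Their summed level was 0.0231 to 0.138 CPM in WT and 0.272 to 1.10 CPM in ESR1KO females, and 0.0733 to 0.0951 CPM in WT and 0.918 to 9.39 CPM in ESR1KO males. *Lep* was at 0 in all 15 libraries, *Plin1* was at 0 in WT males and ESR1KO females, *Retn* was at 0 in WT females, and *Adipoq* had group means of at most 0.0355 CPM. Only *Cfd*, the gene of adipsin, had enough counts to be tested, and it passed in males (0.0538 ± 0.0257 CPM in WT against 3.31 ± 4.03 in ESR1KO; edgeR adjusted p = 0.00701), with 8 reads over the WT males, and in the mean of both sexes (edgeR adjusted p = 0.00284), but not in females (edgeR adjusted p = 0.101, unadjusted p = 0.0109). ESR1KO males were at 1.95, 1.10, 9.32 and 0.891 CPM of *Cfd*, so that the third mouse carried most of their mean, which was 1.31 CPM without it. Without that mouse *Cfd* still passed in males (edgeR adjusted p = 0.00466), and it did not without the third WT male (edgeR adjusted p = 0.0597). The part of such cells in the *Pparg* values was not tested.

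**Figure D2:**
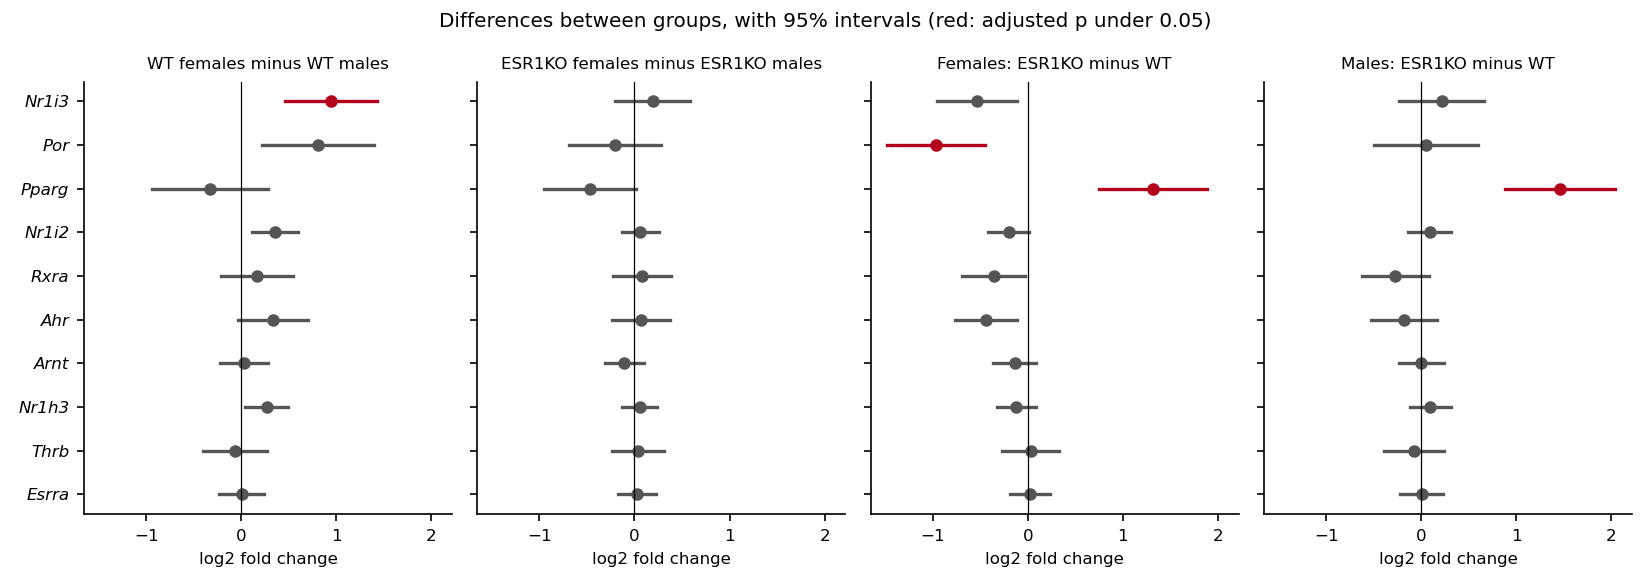
Log2 fold changes of the 10 genes (points) with their 95% intervals (lines) for 4 comparisons, from left to right the female minus male difference in WT and in ESR1KO mice, and the ESR1KO minus WT difference of each sex. Red marks an adjusted p under 0.05: Nr1i3 in the first panel, no gene in the second, Por and Pparg in the third and Pparg in the fourth.

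The other 5 genes passed in no comparison. *Ahr* (ENSMUSG00000019256; chromosome 12, 35497974 to 35535038, minus strand) was at 93.8, 65.4 and 79 CPM in WT females and 56.2, 58.7, 63.6, 47.2 and 66.4 CPM in their ESR1KO counterparts. WT males had 62, 50 and 77 CPM, and ESR1KO males 55.5, 58.3, 44.7 and 63.9 CPM. Its estimate in females was -0.44 (95% interval -0.77 to -0.12, edgeR adjusted p = 0.101), and 4 of 5 ESR1KO females lay below every WT female. *Arnt* (ENSMUSG00000015522; chromosome 3, 95434388 to 95497240, plus strand), its partner, lay between 36.4 and 51.8 CPM in all 15 mice. The intervals of its 4 group differences lay between -0.36 and 0.29.

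*Nr1h3* (ENSMUSG00000002108; chromosome 2, 91184061 to 91202834, minus strand) was at 92.5, 103 and 103 CPM in WT females and at 83.6, 82.4 and 82.0 CPM in WT males. The groups did not overlap, and the difference of 0.27 (95% interval 0.04 to 0.50) was not called (edgeR adjusted p = 0.204). ESR1KO females ranged from 82.0 to 103 CPM and ESR1KO males from 79.7 to 102 CPM, so both spanned the 2 WT groups. *Thrb* (ENSMUSG00000021779; chromosome 14, 17660261 to 18038090, plus strand) ranged from 36.4 to 60.4 CPM, and both extremes were ESR1KO females. *Esrra* (ENSMUSG00000024955; chromosome 19, 6910977 to 6921813, minus strand) ranged from 23.7 to 31.1 CPM, with both extremes in WT females. Its group means lay between 27.4 and 27.9 CPM, and the intervals of its 4 group differences between -0.23 and 0.25.

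Between ESR1KO females and ESR1KO males, 0 of the 10 genes were called by edgeR and 0 by DESeq2, and 0 had an unadjusted p under 0.05, against 17.5% of all genes. The background was low in edgeR, at 48 genes or 0.272% of those tested, so a count of 0 in 10 genes is near it. No gene of the 10 had groups without overlap here, against 5.22% of all genes. The interaction was called for 0 of the 10 by either tool, with 2 (*Por* and *Nr1i3*) at an unadjusted p under 0.05, against 14.3% of all genes. It was called for 343 genes, 1.94% of those tested.

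Per kilobase of the longest annotated transcript, which allows levels of different genes to be compared, *Por* was highest at 137 CPM per kb as the mean of the 4 groups. It was followed by *Rxra* (89.1), *Nr1i3* (87.8), *Nr1h3* (45.6), *Nr1i2* (29.3), *Ahr* (11.6), *Esrra* (11.1), *Arnt* (10), *Thrb* (7.70) and *Pparg* (6.62). Of the 4414 exon bases of *Nr1i3*, 3304 are shared with *Tomm40l*, and the part of this in its level and rank was not tested. In WT females *Por* (205 ± 17.5 CPM per kb, SD, n = 3) lay above *Nr1i3* (125 ± 20.2), and *Nr1i3* and *Rxra* (104 ± 4.0) lay within about 1 SD of each other. In WT males *Por* (117 ± 29.4) and *Rxra* (93.2 ± 13.7) overlapped within 1 SD of each mean, while *Rxra* and *Nr1i3* (64.8 ± 14.6) were just apart on that measure. *Ahr* and *Esrra* overlapped within 1 SD of each mean in all 4 groups, and *Esrra* and *Arnt* in all but ESR1KO females (11.2 ± 0.810 and 9.40 ± 0.555). *Pparg* was the lowest of the 10 in both WT groups (3.23 ± 0.470 and 4.07 ± 0.884 CPM per kb) and sixth in ESR1KO males (11.1 ± 2.18), level with *Esrra* (11 ± 0.924).

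**Figure D3:**
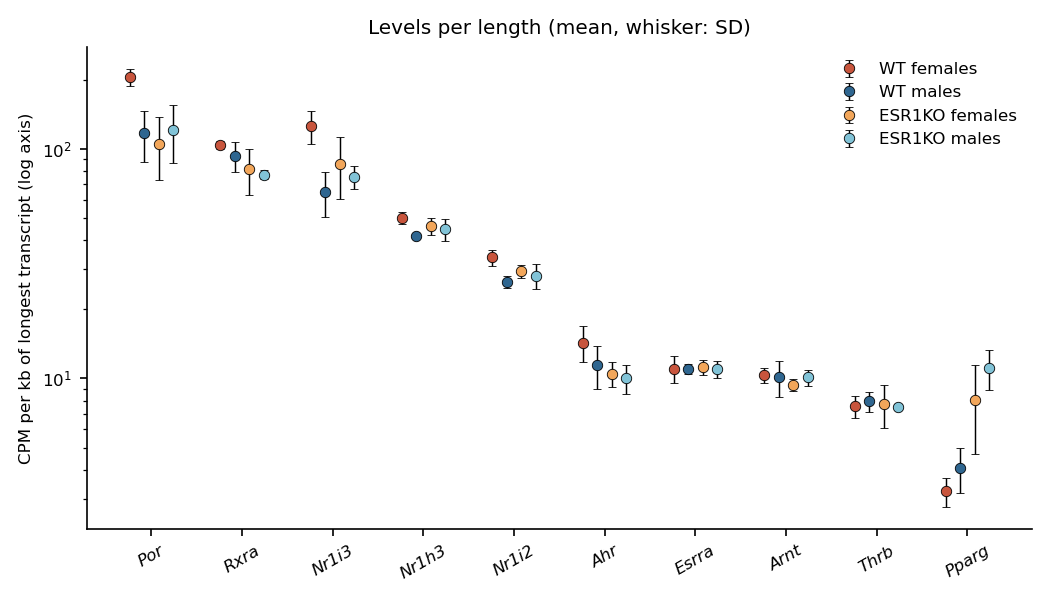
Level of each gene in CPM per kb of its longest annotated transcript, on a logarithmic axis, as group mean (point) and SD (whisker), with genes ordered by the mean of the 4 groups. Levels span from 3.23 CPM per kb for Pparg to 205 for Por, both in WT females, and Pparg shows the widest spread between groups.

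The targets of CAR and PXR were followed as a list of 13 genes, *Por* among them. From WT males to WT females, 3 were higher and 2 lower (median 0.64, beside 0.01 for all genes), where 4.87% of all genes were called. *Cyp2b10*, the classical CAR target, was at 10.7 ± 1.82 CPM in WT females and at 0.0546 ± 0.0598 in WT males, where it had only 7 reads in all. It was at 2.06 ± 0.650 CPM in ESR1KO females and 2.65 ± 1.16 in ESR1KO males. So it fell in females (edgeR adjusted p = 7.1e-05) and rose in males (4.99e-05), and the interaction passed (7.55e-07). The log2 fold change in females was -2.37 ± 0.285 SE, and that in males is not given as it rests on the 7 reads.

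*Abcb1a*, which encodes a drug efflux pump, was likewise highest in WT females and lowest in WT males. WT females were at 13 ± 1.72 CPM, WT males at 2.73 ± 0.223, ESR1KO females at 5.70 ± 0.876 and ESR1KO males at 5.27 ± 0.593. It fell in females (log2 fold change -1.19, edgeR adjusted p = 3.2e-05) and rose in males (0.95, 0.00415), and its interaction was -2.14 (9.35e-06). In females the list had 2 genes higher and 3 lower (median -0.06, beside 0.00), and in males 3 higher and none lower (median 0.53, beside 0.00). Over all genes, 5.71% were called in females and 1.42% in males. *Cyp2c55* rose in both sexes, by 1.96 in females (edgeR adjusted p = 0.00025) and 1.17 in males (0.03).

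The main PXR target *Cyp3a11* was at 2090 ± 384 CPM in WT and 3471 ± 1155 CPM in ESR1KO females, and at 2037 ± 563 CPM in WT and 3202 ± 601 CPM in ESR1KO males. It passed only as the mean over both sexes (log2 fold change 0.69 ± 0.187 SE, edgeR adjusted p = 0.0474), and this call was lost in 11 of the fits with 1 mouse left out. *Cyp2c29* passed in females (0.60, 0.048) and in the mean of both sexes (0.56, 0.0172). Its call in females was lost in 10 of the fits with 1 mouse left out, and that in the mean in 1. *Slco1a4*, a hepatic uptake transporter, was higher in WT females than in WT males (1.74, 0.0105), and *Ces2a*, a carboxylesterase, was lower (-0.77, 0.0106). In ESR1KO mice, 0 of the 13 targets were called between the sexes by edgeR, and 1 had an unadjusted p under 0.05. Over all genes, only 0.272% were called in that comparison and 17.5% had an unadjusted p under 0.05. Genes of these enzyme families have close relatives, and how reads shared between copies were counted was not given in the sources used here.

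Of the 13 partners of CAR and PXR (RXRs, coactivators, corepressors and chaperones), *Ncoa2*, which encodes a coactivator, was the only one called. It fell in ESR1KO females (81.1 ± 3.15 CPM to 64.0 ± 3.67; log2 fold change -0.34, edgeR adjusted p = 0.0353) and in the mean of both sexes (-0.27, 0.0268). Each of these calls was lost in 6 of the fits with 1 mouse left out. Over all genes, 5.71% were called in females and 4.13% in the mean. The median of the 13 in females was -0.26, beside 0.00 for all genes, with 1 of 13 estimates higher. Of the 7 genes of microsomal electron transfer, *Por* alone was called, in females. The median of that list in females was -0.05, beside 0.00 for all genes.

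For AHR, 0 of the 7 tested genes of its complex were called in any comparison by edgeR, with at most 2 at an unadjusted p under 0.05 in each comparison. Over all genes, 0.272% to 5.71% were called and 11.9% to 22.5% had an unadjusted p under 0.05, depending on the comparison. Among 8 tested targets, *Cyp1a1*, the classical one, was at 1.41 ± 0.10 CPM in WT females and between 1.67 and 1.80 CPM as the mean of each other group, with no call. *Cyp1a2* was called lower in ESR1KO females (591 ± 167 CPM to 319 ± 114, log2 fold change -0.89, edgeR adjusted p = 0.0486) and in the mean of both sexes (-0.80, 0.0216). The call in females was lost in 13 of the 15 fits with 1 mouse left out, and that in the mean in 2. The median of the 8 targets was 0.18 in females and 0.17 in the mean, beside 0.00 for all genes. In each, 5 of 8 estimates were higher in ESR1KO mice. *Nqo1*, a quinone reductase, was higher in WT females than in WT males (1.27, 0.00246). *Ugt1a6b*, a glucuronosyltransferase that shares exons with its locus, was lower (-0.65, 0.0112). Between WT females and WT males the median of the 8 was -0.11, beside 0.01 for all genes, with 3 of 8 estimates higher in females.

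Among 12 LXR targets, *Abcg5*, a sterol exporter of bile, fell in ESR1KO females (128 ± 14 CPM to 91.2 ± 9.30; log2 fold change -0.49, edgeR adjusted p = 0.0282). *Pltp*, the phospholipid transfer protein, rose in ESR1KO males (27.8 ± 8.57 CPM to 127 ± 26.3; 2.20, 0.016), as did *Scd1*, the stearoyl-CoA desaturase (4649 ± 124 to 17185 ± 4661 CPM; 1.89, 0.0396). The median of the list was -0.12 in females and 0.27 in males, beside 0.00 for all genes in both. In the mean over both sexes *Pltp*, *Scd1* and *Lpl*, the lipoprotein lipase, were higher. The call of *Lpl* was lost in 9 of the fits with 1 mouse left out. In males the call of *Scd1* was lost in 7 such fits and that of *Pltp* in 2, and in females that of *Abcg5* in 3. Over all genes, 5.71% were called in females, 1.42% in males and 4.13% in the mean. Between the sexes 0 of the 12 LXR targets were called by edgeR in either genotype. An unadjusted p under 0.05 was found for 4 in WT mice, against 17.3% of all genes, and 5 in ESR1KO mice, against 17.5%. The median was 0.21 in WT mice, with 8 of 12 estimates higher in females. In ESR1KO mice it was -0.31, with 2 of 12 higher, beside 0.01 for all genes in both.

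Among 8 thyroid hormone targets, *Dio1*, the deiodinase that turns thyroxine into its active form, fell in ESR1KO females (237 ± 39.5 CPM to 118 ± 31.3; log2 fold change -1.01, edgeR adjusted p = 0.00548) and in the mean of both sexes (-0.84, 0.00293), with a male estimate of -0.67 (0.14). *Me1*, the cytosolic malic enzyme, rose in ESR1KO males (148 ± 3.74 CPM to 462 ± 119; 1.65, 0.00904) and in the mean of both sexes (1.31, 0.00184), with a female estimate of 0.98 (0.0542). Neither interaction was called (*Dio1* -0.34, edgeR adjusted p = 0.604, and *Me1* -0.67, 0.449). *Thrsp*, a lipogenic gene, was not called, with group means between 524 and 919 CPM. Of 8 ERR alpha targets, *Cycs*, the gene of cytochrome c, rose in ESR1KO females (0.60, 0.0363), and *Pdk4*, a kinase that shuts off pyruvate oxidation, rose in ESR1KO males (1.84 ± 0.399 to 5.27 ± 1.94 CPM; 1.51, 0.0156).

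From WT to ESR1KO in the mean of both sexes, 4.13% of all genes were called, and their median was 0.00. Of 7 tested PPAR gamma targets, 5 were higher in ESR1KO mice in this mean and none was lower (median 0.93). They were *Vldlr*, a lipoprotein receptor (0.93, edgeR adjusted p = 0.00138), *Cd36*, a fatty acid transporter (0.87, 0.01), the lipid droplet genes *Cidec* (1.87, 0.0106) and *Plin4* (1.05, 0.0238), and *Mogat1*, an acyltransferase of triglyceride synthesis (1.46, 0.0206). In males alone *Vldlr* and *Cd36* passed (median 1.27), and in females none did (median 0.62, with 6 of 7 estimates higher and 6 of 7 at an unadjusted p under 0.05, the lower *Vldlr* among them). Over all genes, 1.42% were called in males, and 22.5% had an unadjusted p under 0.05 in females. *Vldlr* was at 8.60, 9.80 and 8.46 CPM in WT females and 1.21, 1.27 and 0.999 in WT males, where it was lowest, while ESR1KO females ranged from 4.43 to 8.33 and ESR1KO males from 4.25 to 7.11 CPM. Its interaction was -2.72 (edgeR adjusted p = 2.09e-05), where that of *Pparg* was -0.14. The third ESR1KO male stood above the other 3 in these genes, as it did in *Pparg* and *Cfd*. It was at 110 CPM of *Cd36* (57.0, 49.9 and 49.2 in the others), 10 CPM of *Cidec* (3.18, 3.64 and 2.19), 1.46 CPM of *Mogat1* (0.651, 0.467 and 0.465) and 21.2 CPM of *Plin4* (7.19, 6.23 and 9.43). Without that mouse 5 of 7 targets were still called in the mean of both sexes (median 0.79) and 1 of 7 in males (median 0.76), where *Cd36* no longer passed (0.76, edgeR adjusted p = 0.0589). *Pparg* remained called without it in males (1.33, 0.0378) and in the mean (1.32, 0.00153).

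**Figure D4:**
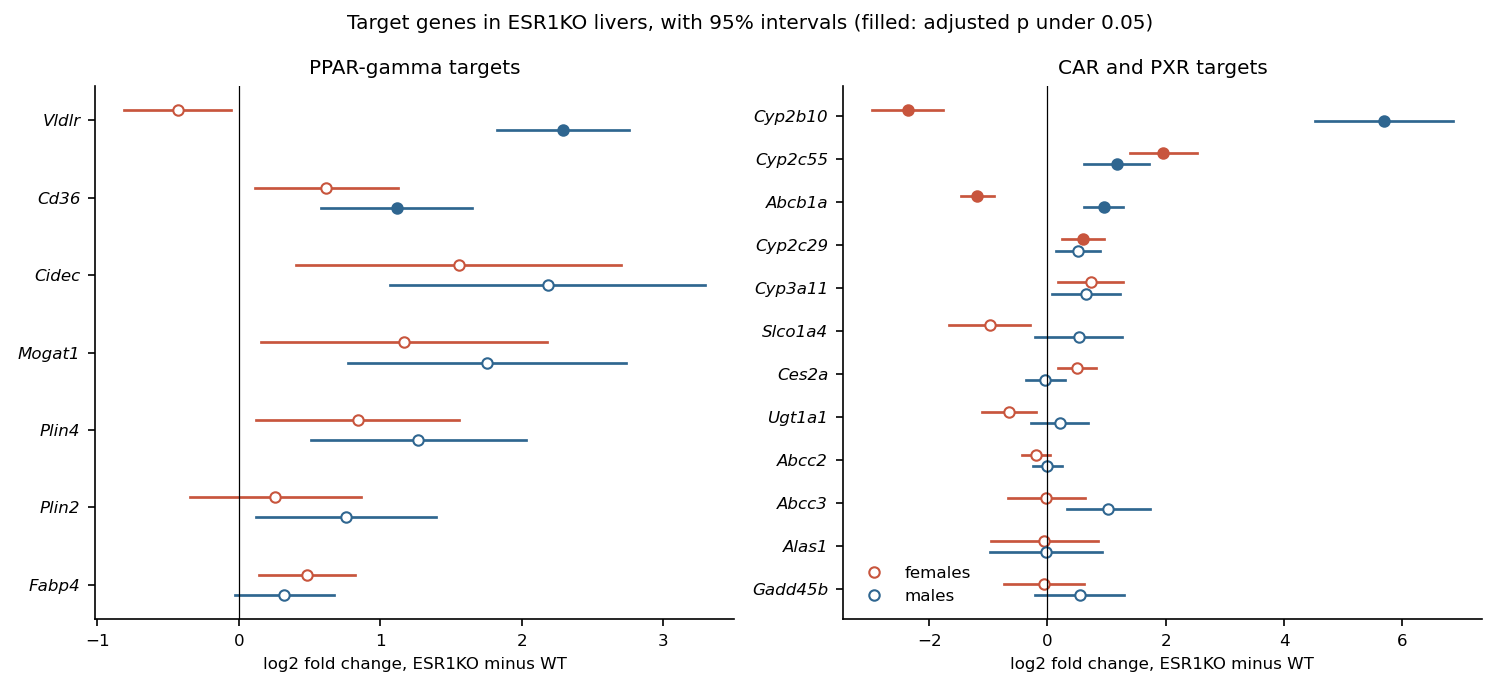
Log2 fold change from WT to ESR1KO with 95% interval of the 7 tested PPAR gamma targets (left) and of 12 CAR and PXR targets (right, without Por), in females (red) and in males (blue), filled where the adjusted p is under 0.05. Above 0 lie 6 of 7 PPAR gamma targets in females and 7 of 7 in males, and Cyp2b10 and Abcb1a lie on opposite sides of 0 in the 2 sexes; the male value of Cyp2b10 rests on 7 reads in WT males.

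Among the nuclear receptor genes of the mouse, 40 of 49 were tested, the 7 described here included. In WT mice none was lower in females, and those higher in females included *Esrrg* (1.59, edgeR adjusted p = 0.00059), *Rarb* (1.06, 0.0188), *Esr1* (1.18, 0.0194), *Nr1i3* (0.95, 0.0202) and *Rarg* (0.59, 0.029). With 1 mouse left out, the call of *Rarg* was lost in 5 of the fits and those of *Rarb* and *Esr1* in 4 each. The median of the 40 was 0.12, beside 0.01 for all genes. In ESR1KO females *Pparg* was the only one higher, and *Esr1*, *Esrrg* (-0.84, 0.0266) and *Ppard* (-0.59, 0.0397) were lower. The call of *Ppard* was lost in 10 of the fits with 1 mouse left out, and that of *Esrrg* in 2. In ESR1KO males *Pparg* was higher and *Esr1* lower, and no other was called. The related *Ppara*, the main PPAR of the liver, was at 235 ± 11 CPM in WT females and 218 ± 52.9 in ESR1KO females, with an estimate of -0.11 (edgeR adjusted p = 0.73).

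The genes whose log2 CPM followed each of the 3 called genes most closely over the 15 mice were found by Pearson's r among the 11640 tested genes whose mean log2 CPM was 1 or more. These r describe mice that differ in sex and genotype, so shared group differences enter them. For *Nr1i3* they were *Zfp516* (r = 0.924), *Mt1* (0.921), a metallothionein, and *S1pr3* (0.904), a sphingosine phosphate receptor. For *Por* they were *Pla1a* (0.887), *Ttll5* (0.870) and *Ahsg* (0.868), the gene of fetuin A. For *Pparg* they were *Galk1* (0.941), the galactokinase, *March8* (0.919) and *2310039H08Rik* (0.918). Among the 10 genes themselves the highest r was that of *Por* with *Rxra* (0.780) and the lowest that of *Ahr* with *Pparg* (-0.693).

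Markers of other liver cells were set beside these values. Summed hepatocyte markers lay between 93353 and 123381 CPM in all libraries. They were at 117312 to 123130 CPM in WT females and 93353 to 95898 CPM in WT males. *Alb* was the 1 of 7 called, higher in WT females than in WT males (0.66). In that comparison the median of the 7 was -0.08, and 4 had an unadjusted p under 0.05, against 17.3% of all genes. Of these 4, *Apoa1* (-0.64), *Apob* (-0.36) and *Ttr* (-0.35) were lower in WT females, opposite to *Alb*. Of the 6 markers each of Kupffer cells, sinusoidal endothelial cells and stellate cells, 0 passed in the genotype comparisons of either sex in edgeR, with at most 2 per cell type at an unadjusted p under 0.05. Over all genes, 22.5% in females and 11.9% in males had such a p. In the mean of both sexes the stellate cell marker *Rgs5* was lower in ESR1KO mice (-0.35, edgeR adjusted p = 0.0403), a call lost in 11 of the fits with 1 mouse left out. The median of the 6 stellate cell markers was 0.06 in this mean. *Dcn* (0.15), *Colec11* (0.17) and *Col1a1* (0.46) were higher and *Lrat* (-0.07) and *Reln* (-0.03) lower, without a call. Between the sexes of ESR1KO mice the Kupffer cell marker *Vsig4* was higher in females (0.61, edgeR adjusted p = 0.021). There 5 of 6 Kupffer cell markers had an unadjusted p under 0.05, against 17.5% of all genes. Kupffer cell markers, which bear on *Pparg* because macrophages express it, summed to 323 to 391 CPM in WT and 315 to 405 CPM in ESR1KO females, and to 305 to 322 CPM in WT and 242 to 314 CPM in ESR1KO males. Cholangiocyte markers summed to 32.4 to 32.9, 43.7 to 51.4, 34.0 to 55.6 and 41.3 to 59.3 CPM in the same order. Of the 5, *Spp1* was called higher in ESR1KO females (median 0.37), and *Epcam* and *Krt19* in ESR1KO males (median 0.56). Over all genes, 5.71% were called in females and 1.42% in males. *Epcam* in females (-0.21) and *Sox9* in males (-0.28) had lower estimates, without a call. The interaction of *Epcam* (-1.17) and the mean over both sexes of *Krt19* (0.80) were called. In WT females *Epcam* was called higher and *Sox9* lower than in WT males. Leukocyte and pancreatic markers had no call. The part of these cells in the results above was not tested.

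Many liver genes follow the clock, and immediate early and heat shock genes respond to handling. Of 16 clock genes, *Per3* fell in ESR1KO females (129 ± 6.65 CPM to 85.7 ± 7.09, log2 fold change -0.59, edgeR adjusted p = 0.0126), and *Bhlhe41* was lower in WT females than in WT males (-1.81, 0.017). From WT to ESR1KO in females the median of the 16 was -0.26, beside 0.00 for all genes, with 3 of 16 estimates higher. An unadjusted p under 0.05 was found there for 5 of 16, against 22.5% of all genes. Of 10 immediate early and heat shock genes, *Hspa1b* was higher in ESR1KO females (0.93, 0.0325), and *Hspa1b* and its near-identical copy *Hspa1a* were higher in the mean of both sexes. The hour of collection was not given in the sources used here, and the part of these values in the results was not tested.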

How the data were processed

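RNA was extracted with TRIzol and RNeasy, depleted of ribosomal RNA and sequenced in 1 lane, with a second run for libraries low in reads. The deposited values are whole-number counts per gene, which the authors made from reads trimmed with Trimmomatic (0.36), aligned to GRCm38 with STAR and counted with HTSeq (0.6.0 per the labels, another version in the methods). Which annotation was used, whether strand was taken into account and what became of multi-mapped reads was not given in the sources used here. No column was left out.

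These counts were tested with edgeR 4.0.16 (R 4.3.3). After filterByExpr, 17655 genes remained. TMM set the library scale, and a quasi-likelihood fit with 1 mean per group over all 15 libraries gave F tests, adjusted by Benjamini-Hochberg. No minimum fold change was set, since receptor genes were taken to differ little. Intervals are 95% t intervals from the same fit. Mice are separate animals, and p values measure the spread between them. Replicates differed more than sampling noise (chi-square per gene of at least 23.5). The fit was tested on simulated data. Of genes changed by 1 on the log2 scale, it recovered 42% in the interaction, 59% between the sexes of WT mice and 66% to 80% in the other comparisons. Of those changed by 2 it recovered 82% to 100%. It called 5 to 15 unchanged genes per comparison. Gene positions and lengths are from GENCODE M21 (55480 of 55573 identifiers matched). Alternatives were DESeq2 1.42.0, other scaling and filters, a block for the replicate number, only the groups compared, other thresholds and each mouse left out.

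The genes, lists and tests were chosen with earlier results of these data known. Named are the 10 genes, *Esr1*, up to 3 called genes per list and comparison, 8 fixed targets and the 3 most similar genes of each called gene. *Tomm40l*, *Rarg*, *Plin4*, *Mogat1* and *Ppara* and the markers, *Xist* and *Cfd* among them, were named outside this rule, after their values were seen. A result of the nuclear receptor list is not reported here.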

Additional observations from a re-analysis of the deposited data

How the results depend on the processing

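With 3 mice in each WT group, calls near the threshold turned on single mice. Of the 10 genes, those called between WT females and WT males numbered 1, and 2 with scaling by total counts, 3 with only the groups compared, 2 at an adjusted p under 0.1, 0 with a log2 fold change of at least 1.5, and 0 to 1 with each mouse left out. In females from WT to ESR1KO they numbered 2, and 1 with only the groups compared, 0 with the fold change minimum, 1 without ESR1KO females 1 and 4 (chosen after seeing the data) and 0 to 3 with each mouse left out. In males they numbered 1, and 0 with the fold change minimum and 0 to 1 with each mouse left out. The mean over both sexes gave 1, and 0 with the fold change minimum. The interaction gave 0, and 1 (*Nr1i3*, -0.96, edgeR adjusted p = 0.0257) with the replicate block. The cause of these shifts was not tested. Same-numbered mice showed little shared deviation from their group means over all genes (1 of 19 pairs with r over 0.1, median -0.02). What the replicate numbers stand for was not given in the sources used here, and these r cannot settle whether they pair mice. The block also called *Nr1i3* in females (-0.83, 0.00521) and changed no other call of the 10 genes. Of 44 called results among the target lists, 21 were lost in at least 1 fit with a mouse left out. No called estimate changed sign. Of 1360 estimates under alternatives, 76 changed sign, all of estimates not called and at most 0.19 in size, and these were counted as unchanged. By merged exon length in place of the longest transcript, 7 of 10 genes kept their rank by level. Over all genes, DESeq2 called 456 between the sexes of ESR1KO mice (edgeR 48), 1536 in females (1008), 499 in males (250), 594 in the interaction (343) and 1243 in the mean (729). Without the filter, 313 genes were called between the sexes of ESR1KO mice and 411 in males. With only the groups compared these counts were 26 and 422, and 457 in females. The block gave 165 in males and 1383 in females. With the fold change minimum the 6 counts fell to between 25 and 319. With total counts, 76.4% of calls between the sexes of ESR1KO mice were higher in females (58.3% with TMM). With each mouse left out in turn, the count over all genes lay between 541 and 1096 for the sexes of WT mice, 26 and 109 for those of ESR1KO mice, 413 and 1538 for females, 100 and 331 for males, 242 and 393 for the interaction and 353 and 1017 for the mean. Without ESR1KO females 1 and 4 it was 28 for the sexes of ESR1KO mice and 585 for females.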
